A study of Mus musculus with 4 samples.

Results

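The Ras, Rap and Ral GTPases examined here are 9 genes (Hras, Nras, Rras, Rras2, Rap1a, Rap1b, Rap2a, Rala and Ralb), chosen by symbol from the 24346 rows of each expression file. Transcript levels were measured by RNA sequencing in aorta of C57BL/6 mice aged 3 weeks, in 2 libraries from GGPPS knockout mice (label KO) and 2 from wild-type mice (label WT). GGPPS, encoded by Ggps1, is geranylgeranyl diphosphate synthase. The labels name male and female mice for every library, and no other allele or treatment is given for either group. Which cells lost the gene, which exon was removed and how many animals stand behind a library are not given in the sources used here.

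Ras family proteins are switches that bind GTP when active and GDP when inactive. Exchange factors load GTP, GTPase-activating proteins speed its hydrolysis, and effectors bind the GTP-loaded form at a membrane. To reach the membrane, these proteins carry a lipid on a cysteine near the carboxyl end, in a short signal called the CAAX box. The last residue of that box guides which lipid is attached: serine, methionine or glutamine favours farnesyl, and leucine favours geranylgeranyl, for which GGPPS makes the donor. The files measure the transcripts of these genes and not the lipid, the protein or its activity.

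The coding ends of the 9 genes are shown because they carry the signal for lipid attachment. Each line gives the last 30 coding bases before the stop codon, 5′ to 3′ on the coding strand, with the codons of the CAAX box in capitals. The sequences come from the principal transcripts of GENCODE M21, and the coordinates are those of GRCm38 (mm10).
Hras (chr7:141191351-141191380, minus strand): ggctgcatgagctgcaaaTGTGTGCTGTCC
Nras (chr3:103063417-103063446, plus strand): ggttgtatggggctgcccTGTGTGCTGATG
Rras (chr7:45021332-45021361, plus strand): aaggatggaggatgtcccTGTGTCCTGCTG
Rras2 (chr7:114048167-114048196, minus strand): gacaagaaaggctgccatTGTGTCATTTTC
Rap1a (chr3:105731988-105732017, minus strand): aagcctaaaaagaaatcaTGTTTGCTGCTC
Rap1b (chr10:117817377-117817406, minus strand): gcccgcaaaaagtcatcgTGTCAGCTGCTT
Rap2a (chr14:120503806-120503835, plus strand): gacccatgctgttctgccTGTAACATACAA
Rala (chr13:17882382-17882411, minus strand): aagagaatcagagaaagaTGCTGCATTTTA
Ralb (chr1:119471709-119471738, minus strand): aaaagtttcaaagagcgaTGCTGCTTGCTG
The box opens with a cysteine codon, TGT or TGC, in all 9 genes. The last codon encodes leucine in 5 of them, Rras, Rap1a, Rap1b, Rala and Ralb. It encodes serine in Hras, methionine in Nras, glutamine in Rap2a and phenylalanine in Rras2. By that codon Rras stands with the Rap1 and Ral genes, and Rap2a with Hras and Nras.

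Of the 9 genes, 6 were higher and 1 was lower in knockout aorta at an adjusted p under 0.05 from limma, fitted on log2(FPKM + 1) across all 12314 tested genes. FPKM is a count of fragments divided by transcript length and by library size, so levels of different genes can be set side by side. Hras, Nras, Rap1b, Rap2a, Rala and Ralb rose, Rras fell, and Rap1a and Rras2 did not pass. All 9 genes passed the filter of at least 1 FPKM in at least 2 libraries, and each stood above 1 FPKM in all 4. Genotype differences were widespread: 65.7% of all tested genes were called, 35.2% as higher and 30.6% as lower, so 7 called genes of 9 is close to the background. The median log2 fold change of the 9 genes was 0.46, against 0.03 over all tested genes. In 6 genes both knockout libraries stood above both wild-type libraries, in 1 below, and in 2 the genotypes overlapped. Such separation was found for 83.1% of all tested genes, 43.6% with knockout above and 39.6% with knockout below.

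**Figure D1:**
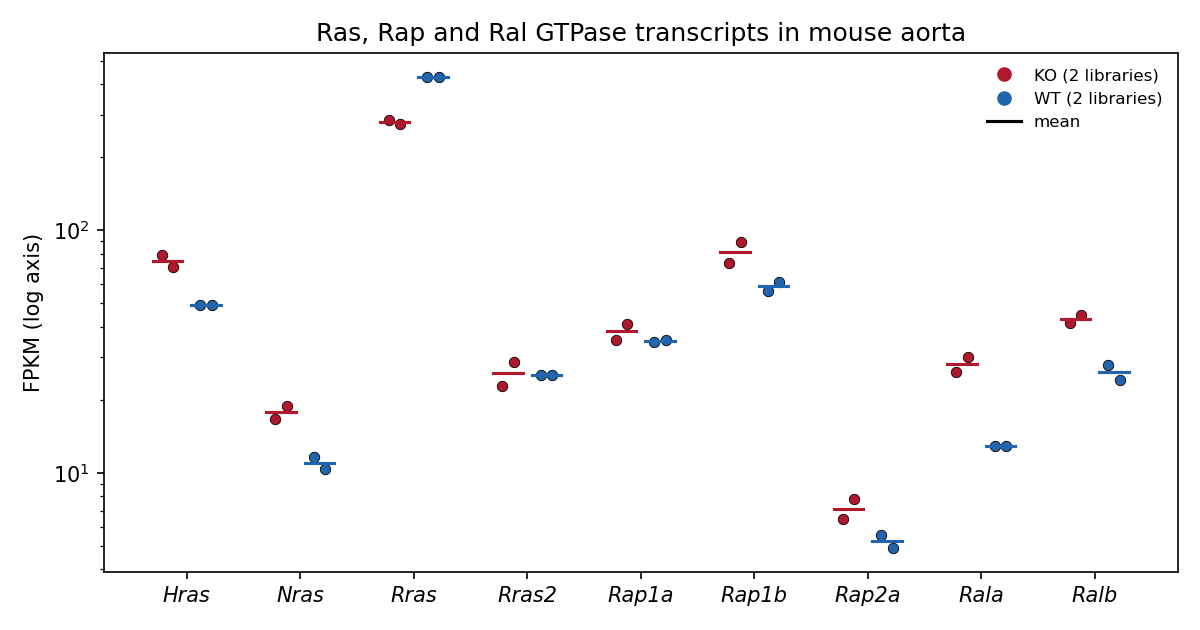
FPKM of the 9 GTPase genes on a log axis, with 2 KO libraries in red left of 2 WT libraries in blue; each point is 1 library and each bar the mean of 2. Rras stands far above the other genes in both genotypes, with 284 and 275 FPKM in KO and 430.1 and 427 FPKM in WT.

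Ggps1, which checks the labels, was at 1.18 and 1.07 FPKM in the knockout libraries and 8.96 and 10.6 FPKM in the wild-type libraries. Marker genes of contractile smooth muscle were lower in 10 of 10 cases, and their summed level was 4966 and 6587 FPKM in knockout against 21010 and 23380 FPKM in wild type. Endothelial markers were lower in 8 of 9 tested genes of 10, with sums of 98.1 and 112 FPKM in knockout against 292 and 299 FPKM in wild type. The endothelial receptor gene Kdr was under 0.24 FPKM in every library. Macrophage markers were higher in 10 of 10 cases, with sums of 550.1 and 466 FPKM in knockout against 75.8 and 76.6 FPKM in wild type. General leukocyte markers were also higher in 10 of 10, with sums of 252 and 203 FPKM in knockout against 16.8 and 18.1 FPKM in wild type. Fibroblast markers were higher in 2 and lower in 6 of 8. Their sums went the other way, at 2212 and 1960 FPKM in knockout against 1887 and 1648 FPKM in wild type. The highest value of a single fibroblast marker was 1850 FPKM. No T and NK cell or B cell marker exceeded 0.38 FPKM. In these bulk samples, fewer cells of a type and less RNA per cell cannot be told apart. The part that these markers' cells play in the changes of the GTPase genes, or of the pathway genes named below, was not tested.

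Hras and Nras encode the classical Ras proteins that activate the Raf kinases and the MAP kinase cascade. Hras (chromosome 7, 141189105 to 141194005, minus strand) was at 78.8 and 70.3 FPKM in the knockout libraries and 49.0 FPKM in both wild-type libraries. Both knockout values lay above both wild-type values, and the wild-type libraries were nearly equal. Its mean was 1.52-fold higher in knockout (log2 fold change 0.59, SE 0.10, limma adjusted p = 0.000184). Nras (chromosome 3, 103058285 to 103067914, plus strand) was at 16.7 and 18.9 FPKM in knockout and 11.6 and 10.3 FPKM in wild type. The genotypes again did not overlap, and Nras stood well below Hras in every library. The mean of Nras was 1.62-fold higher in knockout (log2 fold change 0.65, SE 0.12, limma adjusted p = 0.000318). Hras made up 82.5% and 78.8% of their summed FPKM in knockout and 80.8% and 82.6% in wild type, ranges that overlap (exact two-sided permutation p = 0.667).

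Rras and Rras2 encode R-Ras and TC21, relatives of Ras. R-Ras is known for promoting integrin adhesion and vessel stability, and in mouse vessels it is known mainly from smooth muscle and endothelium. Rras (chromosome 7, 45017961 to 45021647, plus strand) was at 284 and 275 FPKM in knockout and 430.1 and 427 FPKM in wild type. It was the most abundant of the 9 genes in both genotypes, above 98.1% of all tested genes by its mean over the 4 libraries, and the one whose knockout values all lay below the wild-type values. Its mean was 1.53-fold lower in knockout (log2 fold change -0.62, SE 0.09, limma adjusted p = 4.1e-05), and its log2 fold change was -0.96 with trends of transcript length and GC content removed. Smooth muscle and endothelial markers, given above, were lower in the same libraries, with median log2 fold changes of -2.27 and -1.27. Rras2 (chromosome 7, 114046782 to 114117781, minus strand) was at 22.9 and 28.8 FPKM in knockout and 25.4 FPKM in both wild-type libraries. The knockout libraries thus stood on either side of the wild-type ones. Its log2 fold change was 0.02 with a 95% interval of -0.25 to 0.28 (limma adjusted p = 0.917), and it was -0.14 without knockout library 2 and -0.24 with the columns scaled to 1 total.

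**Figure D2:**
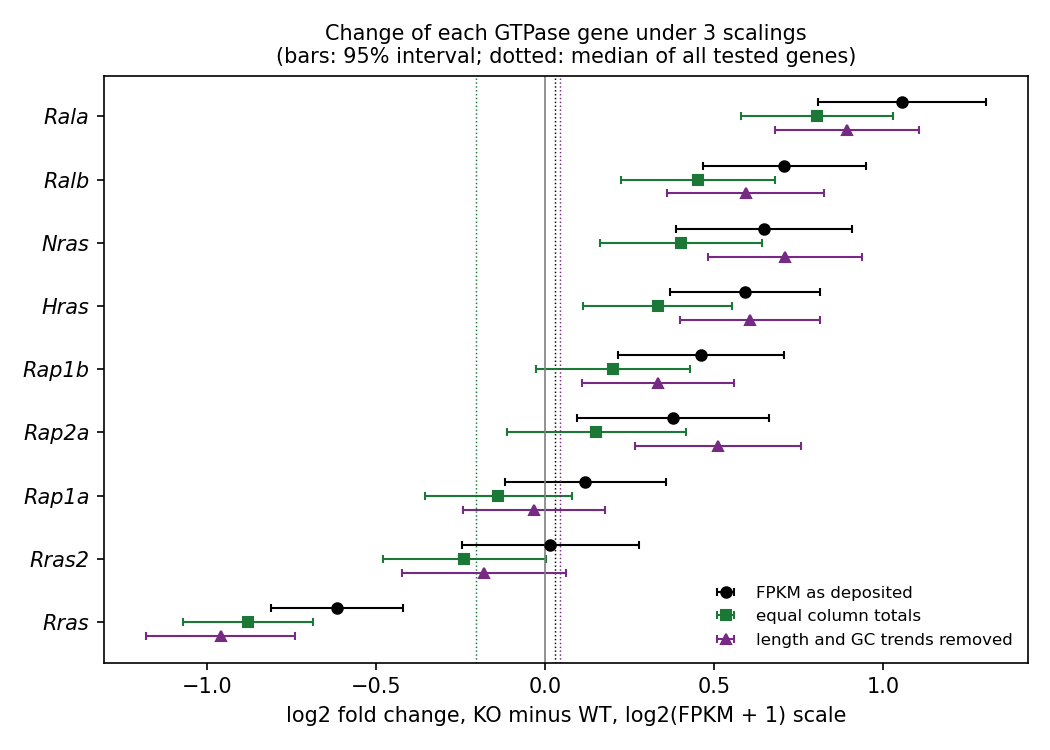
Log2 fold change, KO minus WT, of the 9 GTPase genes on the log2(FPKM + 1) scale, with 95% intervals, from FPKM as deposited (black circles), with equal column totals (green squares) and with length and GC trends removed (purple triangles); dotted lines give the median of all tested genes under each. Rala lies furthest to the right at 1.06 and Rras furthest to the left at -0.62, while Rap1a and Rras2 lie to either side of 0 depending on the scaling.

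Rap1a and Rap1b encode the near-identical Rap1 proteins, which control integrin activation and cell junctions. Rap1b (chromosome 10, 117813871 to 117846035, minus strand) was at 73.5 and 89.5 FPKM in knockout and 56.1 and 61.3 FPKM in wild type. The genotypes did not overlap, but the knockout libraries differed from each other by more than the gap to wild type. Its mean was 1.39-fold higher in knockout (log2 fold change 0.46, SE 0.11, limma adjusted p = 0.0028). With equal column totals its log2 fold change was 0.20 (adjusted p = 0.104, within a range of 0.00102 to 0.104 over 13 alternatives), which ended the call. Rap1a (chromosome 3, 105727267 to 105801336, minus strand) was at 35.3 and 41.2 FPKM in knockout and 34.8 and 35.4 FPKM in wild type. Knockout library 1 fell between the wild-type libraries. Its log2 fold change was 0.12 with a 95% interval of -0.12 to 0.36 (limma adjusted p = 0.356), and -0.14 with equal column totals. Rap1b made up 67.5% and 68.5% of the summed FPKM of Rap1a and Rap1b in knockout and 61.8% and 63.4% in wild type. Its share did not overlap between genotypes, with the smallest p that an exact two-sided test of 2 libraries against 2 can give (permutation p = 0.33).

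Rap2a encodes a Rap protein that acts on the cytoskeleton through effector kinases such as TNIK. It was the least abundant of the 9 genes (chromosome 14, 120478444 to 120507194, plus strand), at 6.44 and 7.80 FPKM in knockout and 5.57 and 4.89 FPKM in wild type. The libraries separated by genotype with a narrow gap. Its mean was 1.36-fold higher in knockout (log2 fold change 0.38, SE 0.13, limma adjusted p = 0.0216). This call ended without knockout library 2 (log2 fold change 0.26, adjusted p = 0.101), without wild-type library 2 (0.30, adjusted p = 0.204), with no filter (0.38, adjusted p = 0.0712) and with equal column totals (0.15, adjusted p = 0.278). Over the 13 alternatives its adjusted p ranged between 0.00244 and 0.278.

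Rala and Ralb encode the Ral proteins, which are activated downstream of Ras and bind the exocyst, a complex that tethers vesicles at the plasma membrane. Rala (chromosome 13, 17880571 to 17944239, minus strand) was at 26.0 and 30.1 FPKM in knockout and 12.89 and 12.97 FPKM in wild type. Both knockout libraries stood far above the wild-type ones, and the change was the largest among the 9 genes. Its mean was 2.17-fold higher (log2 fold change 1.06, SE 0.12, limma adjusted p = 2.6e-06). Ralb (chromosome 1, 119470305 to 119504794, minus strand) was at 41.4 and 44.8 FPKM in knockout and 27.8 and 24.2 FPKM in wild type, without overlap. Its mean was 1.66-fold higher (log2 fold change 0.71, SE 0.11, limma adjusted p = 7.65e-05). Ralb remained the more abundant Ral gene, and Rala made up 38.6% and 40.2% of their summed FPKM in knockout and 31.7% and 34.9% in wild type. The shares did not overlap (exact two-sided permutation p = 0.33, the smallest possible).

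**Figure D3:**
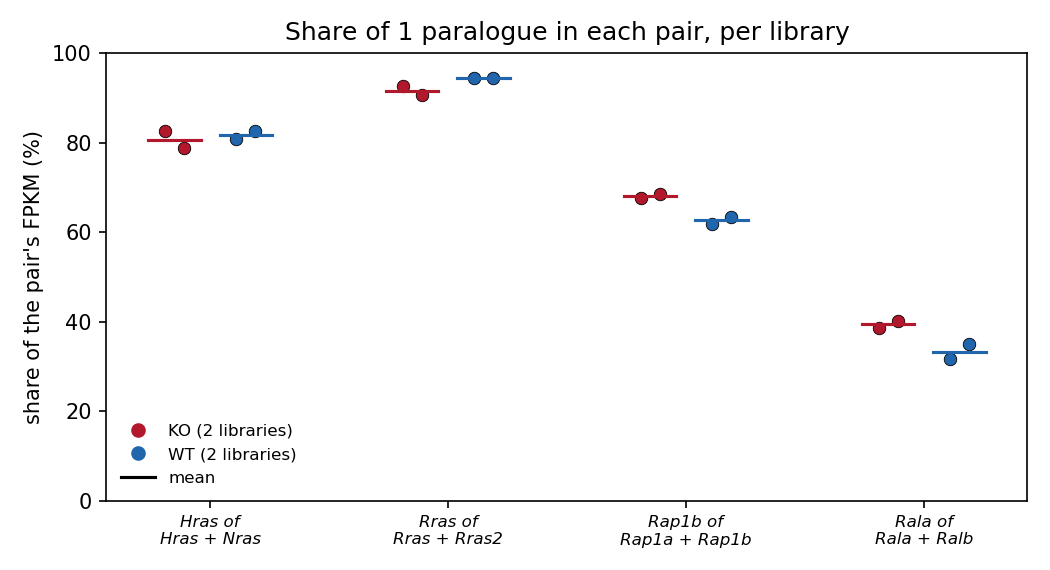
Share of 1 paralogue in the summed FPKM of its pair, in percent, with 2 KO libraries in red left of 2 WT libraries in blue and bars for the means. Rap1b and Rala take larger shares in KO (67.5% and 68.5%, and 38.6% and 40.2%) than in WT (61.8% and 63.4%, and 31.7% and 34.9%), Rras a smaller one, and the Hras shares overlap.

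The order of levels differed between genotypes below the first 3 places. In knockout the means ran from Rras at 279 FPKM through Rap1b (81.5), Hras (74.6), Ralb (43.1), Rap1a (38.3), Rala (28.0), Rras2 (25.8) and Nras (17.8) to Rap2a at 7.12. In wild type they ran from Rras at 429 FPKM through Rap1b (58.7), Hras (49.0), Rap1a (35.1), Ralb (26.0), Rras2 (25.4), Rala (12.9) and Nras (11) to Rap2a at 5.23. Neighbours whose libraries overlapped were Rap1b and Hras, and Rala and Rras2, in knockout, and Ralb and Rras2 in wild type. The summed level of the 9 genes was 585 and 606 FPKM in knockout and 653 and 651 FPKM in wild type. Without Rras the sum was 301 and 331 FPKM in knockout against 223 and 224 FPKM in wild type, so the total and the total without Rras moved in opposite directions. Rras held 48.5% and 45.3% of the 9-gene sum in knockout and 65.8% and 65.7% in wild type. Each of these contrasts had an exact two-sided permutation p = 0.33, the smallest possible.

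Scaling bears on these changes, because the FPKM columns summed to 611767 and 632918 in knockout against 515927 and 520478 in wild type. With equal column totals the median over all tested genes was -0.20 on the log2 scale, a shift of -0.23, and 70.7% of genes were called, 25.1% as higher and 45.6% as lower. Of the 9 genes, Hras, Nras, Rala and Ralb stayed called as higher and Rras as lower. The log2 fold changes of Hras, Nras and Ralb moved by over 1.5 times, to 0.33, 0.40 and 0.45 with equal column totals, against 0.59, 0.65 and 0.71 as deposited. Relative to the median of all genes, Rala stood at 1.03 as deposited and 1.01 with equal totals, Hras at 0.56 and 0.54, and Rras at -0.65 and -0.67. Knockout library 2 was above knockout library 1 in 7 of the 9 genes, Hras and Rras being the exceptions. Across all genes detected in every library, the median-of-ratios scaling factor was also larger for knockout library 2, at 1.047 against 0.9695.

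Grouped by the last codon of the CAAX box, the leucine genes were mixed. Of those 5, Rap1b, Rala and Ralb were higher, Rras was lower and Rap1a was not called, with log2 fold changes from -0.62 to 1.06. The Rap1b call ended with equal column totals, as given above. Over all tested genes, 35.2% were called higher and 30.6% lower. The genes ending in serine, methionine and glutamine, Hras, Nras and Rap2a, were all called higher, by 0.59, 0.65 and 0.38, the last a call that ended in the settings given above. Rras2, ending in phenylalanine, was not called. The difference between these groups of genes was not tested.

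Pairs of related genes shared only short stretches of identical coding sequence. Rap1a and Rap1b were identical at 81.7% of 552 coding bases, with a longest identical run of 20 bases. Hras and Nras were identical at 75.3% of 567 bases and Rala and Ralb at 59.9% of 618, with longest runs of 23 and 17. The last 30 bases, shown above, were identical at 63.3% in Rap1a and Rap1b and at 56.7% in Hras and Nras, less than the 82.8% and 76.4% of the bases before them. In Rala and Ralb they were identical at 66.7%, against 59.5% before them. No other gene of GENCODE M21 shared an exonic base with any of the 9. RefSeq names the pseudogenes Nras-ps2 and Rap1a-ps2, so the levels of Nras and Rap1a are uncertain where reads could fall on such copies. Only pseudogenes named after a member were searched for, so the other genes are not shown to be free of copies.

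The promoters of Rala and Rras are shown because these genes moved furthest in each direction. RefSeq's promoter table for GRCm38.p6 matched 8 of the 9 symbols, and Rap1a was not matched. The 250 bases before the start of transcription were searched on both strands for the GC box GGGCGG, the E-box CACGTG, the CCAAT box CCAAT and the TATA box TATAAA, counting overlapping matches. Capitals mark every match.
Rala (chr13:17944218-17944467, minus strand): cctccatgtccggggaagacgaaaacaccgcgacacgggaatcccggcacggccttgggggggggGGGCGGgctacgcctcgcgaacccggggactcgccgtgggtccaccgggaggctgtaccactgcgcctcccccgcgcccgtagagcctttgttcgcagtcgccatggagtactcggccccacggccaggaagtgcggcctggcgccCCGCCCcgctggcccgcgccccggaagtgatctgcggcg
Rras (chr7:45017692-45017941, plus strand): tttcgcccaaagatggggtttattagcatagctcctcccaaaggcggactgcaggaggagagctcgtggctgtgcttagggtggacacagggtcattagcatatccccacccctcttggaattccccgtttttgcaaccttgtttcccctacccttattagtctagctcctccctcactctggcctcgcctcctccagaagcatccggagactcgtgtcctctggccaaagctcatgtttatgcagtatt
The Rala window held 2 GC boxes and 32 CpG dinucleotides at 73.6% G and C. The Rras window, at the most upstream of the start sites listed for it, held none of the 4 motifs and 7 CpG dinucleotides at 53.2% G and C. Of the 8 matched genes, all but Rras had at least 1 GC box, which is found in 32.7% of the 32851 promoter windows of the table. The median window of the table had 52.4% G and C and 6 CpG dinucleotides. These matches describe the sequence and say nothing of which factors act there.

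Genes named only by a predicted-gene, clone or accession symbol were left out of a search for like levels. Among the other tested genes, those closest to Rala over the 4 libraries were Usp39, Xpot and Ppil3. Their Euclidean distances were 0.070, 0.12 and 0.13 in log2(FPKM + 1). Those closest to Rras were Jund, Actn4 and Pls3, at 0.35, 0.40 and 0.40. With 4 libraries, this likeness reflects level and genotype only.

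Other GTPases of the Ras family were called higher in 6 and lower in 8 of 19 tested genes, with a median log2 fold change of 0.04. They were higher in 3 and lower in 9 with equal column totals, and with length and GC trends removed in 6 and 10. The medians were then -0.21 and -0.26. All-gene shares were 35.2% higher and 30.6% lower as deposited, 25.1% and 45.6% with equal totals, and 35.5% and 29.1% with trends removed. Diras2 was at 5.45 and 6.68 FPKM in knockout and 0.669 and 0.440 FPKM in wild type (log2 fold change 2.18, limma adjusted p = 1.21e-08). Rrad, which encodes an inhibitor of voltage-gated calcium channels, was at 41.4 and 49.4 FPKM in knockout and 147 and 158 FPKM in wild type (log2 fold change -1.73, limma adjusted p = 1.27e-08). Rasl12 was lower with a log2 fold change of -2.03, and Rasl10b, at under 4 FPKM in every library, with -1.64. Smooth muscle markers fell in the same libraries with a median of -2.27. Rap2b, a close relative of Rap2a, was higher with a log2 fold change of 0.61, which was 0.38 with equal column totals and 0.97 with length and GC trends removed.

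Exchange factor genes were mostly called lower from FPKM as deposited. Ras exchange factors were lower in 3 and higher in 0 of 4 tested genes of 8, Rap exchange factors in 3 and 0 of 5, and Ral exchange factors in 4 and 1 of 5. The counts lower and higher were 4 and 0, 4 and 0, and 4 and 1 with equal column totals. Over all tested genes, 30.6% were lower and 35.2% higher as deposited, and 45.6% and 25.1% with equal column totals. Rasgrp2 was at 4.73 and 6.18 FPKM in knockout and 31.4 and 31.1 FPKM in wild type (log2 fold change -2.33, limma adjusted p = 3.5e-09). Its protein is known to act mainly on Rap1, although the gene was listed with the Ras exchange factors. Rapgef5 and Rapgef2, exchange factors of Rap1, had log2 fold changes of -1.15 and -0.72. Ralgds, which encodes an exchange factor that links Ras to Ral, was the 1 that rose, with 0.53, and 0.32 with equal column totals.

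Among genes of the inactivating proteins, the balance of calls differed between scalings, as it did over all tested genes. Of all tested genes, 35.2% were higher and 30.6% lower as deposited, and 25.1% and 45.6% with equal column totals. As deposited, Ras GTPase-activating proteins were lower in 3 and higher in 2 of 8 tested genes, Rap GTPase-activating proteins lower in 2 and higher in 0 of 5, and the Ral GTPase-activating complex lower in 1 and higher in 0 of 3. With equal column totals none of these genes was called higher, and 4, 5 and 2 genes of these lists, in that order, were called lower. Dab2ip and Sipa1l1 were lower, with log2 fold changes of -0.72 and -0.57. Rasa1, the p120 RasGAP gene, had a log2 fold change of 0.51 and was called higher. It was at 0.36 (adjusted p = 0.112) when wild-type library 2 was left out and at 0.27 (adjusted p = 0.067) with equal column totals, so the call ended in both (range over its alternatives 0.00124 to 0.112).

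**Figure D4:**
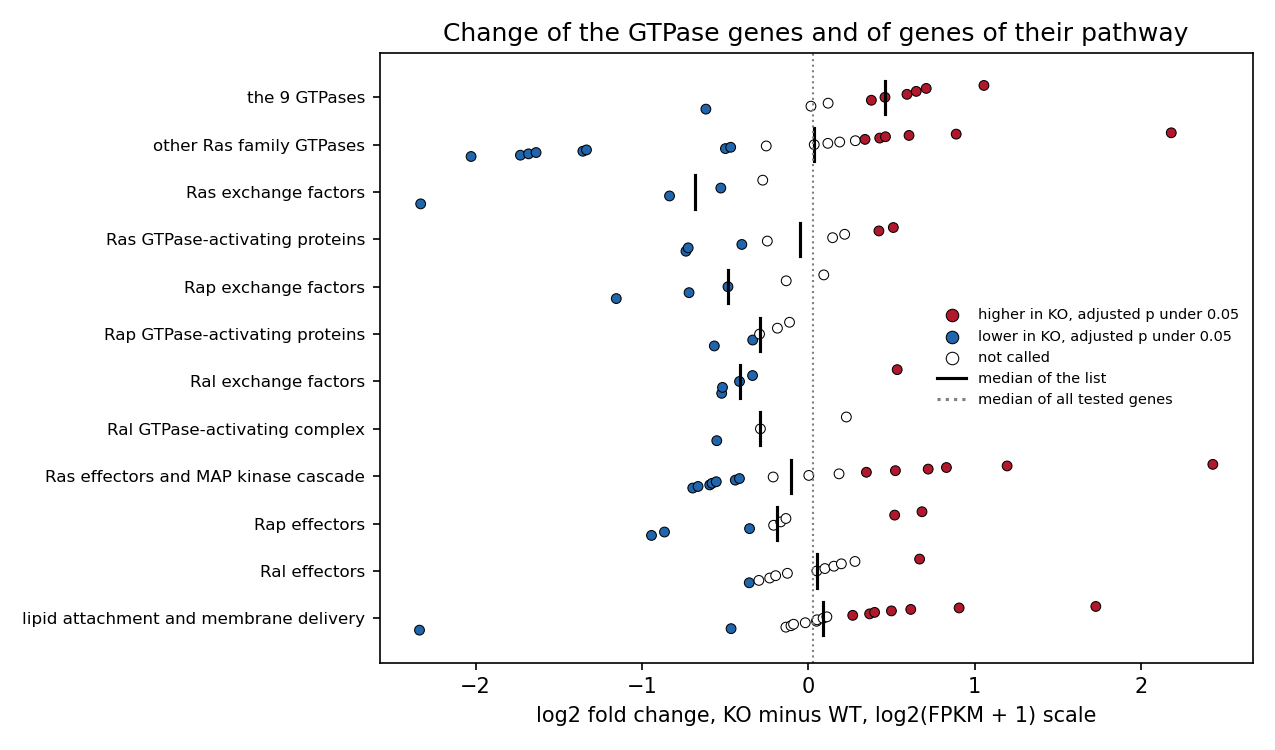
Log2 fold change, KO minus WT, on the log2(FPKM + 1) scale, of the 9 GTPase genes and of 11 lists of genes of their pathway; each point is 1 tested gene, red where higher and blue where lower in KO at a limma adjusted p under 0.05, white where not called, with black bars for list medians and a dotted line for the median of all tested genes. The median of the 9 GTPases is 0.46, and the medians of the exchange factor lists are -0.68, -0.48 and -0.41.

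Over all tested genes, the median log2 fold change fell with transcript length. The part of length in the list changes was not tested, because length and GC trends were removed together. The 2964 tested genes with the shortest transcripts, up to 1954 bases, had a median log2 fold change of 0.38, and the 2961 with the longest, from 4619 bases, had -0.24. With trends of length and GC content removed, the median of the Rap GTPase-activating list was 0.23, against -0.29 as deposited, and that of the Ras GTPase-activating list 0.17, against -0.05. The medians of the Ras, Rap and Ral exchange factor lists were -0.47, -0.16 and -0.25 there, against -0.68, -0.48 and -0.41 as deposited. Called genes there were 4 higher and 2 lower in the Ras GTPase-activating list, 1 and 0 in the Rap GTPase-activating list and 1 and 0 in the Ral GTPase-activating complex. Ras exchange factors were higher in 0 and lower in 3, Rap exchange factors in 2 and 2, and Ral exchange factors in 1 and 3. Under that correction Sipa1l1 was at -0.12 (limma adjusted p = 0.321, the highest of its alternatives, the lowest being 7.49e-05), Dab2ip at -0.24 and Rapgef2 at -0.35. Of the 9 GTPases, 6 were called higher and 1 lower there too, beside 64.6% of all genes called, 35.5% as higher and 29.1% as lower.

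Genes of Ras effectors and of the MAP kinase cascade moved in both directions, as did tested genes as a whole (35.2% higher, 30.6% lower). These effector and cascade genes were higher in 6 and lower in 7 of 16 tested genes, with a median log2 fold change of -0.10. The counts were 5 higher and 8 lower with equal column totals, and with length and GC trends removed 7 and 4. All-gene shares in those settings were 25.1% and 45.6%, and 35.5% and 29.1%. Rin1, an effector of Ras that activates Rab5, was at 11.5 and 11.2 FPKM in knockout and 1.11 and 1.49 FPKM in wild type (log2 fold change 2.43, limma adjusted p = 2.51e-09). Map2k1 and Map2k2, the kinases that act on ERK, were higher with log2 fold changes of 0.83 and 0.72, and Map2k2 was at 0.46 with equal column totals. Araf, which encodes a kinase that binds Ras directly, was lower with a log2 fold change of -0.58. Rassf1, whose protein is a scaffold of the Hippo kinases, was higher with 1.20.

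Rap effectors were higher in 2 and lower in 3 of 8 tested genes, and in 2 and 5 with equal column totals. With length and GC trends removed they were higher in 2 and lower in 2 of the 7 with a transcript length. All-gene shares, higher and lower, were 35.2% and 30.6%, then 25.1% and 45.6%, then 35.5% and 29.1%. Tln1, the gene of talin, which activates integrins, was at 42.0 and 49.5 FPKM in knockout and 83.1 and 84.6 FPKM in wild type (log2 fold change -0.86, limma adjusted p = 9.13e-06). Its log2 fold change was -0.35 once length and GC trends were taken out. Rasip1, an effector known from mouse endothelium, was lower with a log2 fold change of -0.94, beside the endothelial markers with a median of -1.27. Rassf5 and Apbb1ip, both known from leukocytes, were higher with 0.68 and 0.52, beside the general leukocyte markers with a median of 2.67. Leaving out wild-type library 2 ended the Apbb1ip call (0.39, adjusted p = 0.0718, within 0.0017 to 0.0718 over its alternatives).

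Ral effectors had 1 gene higher and 1 lower of 11 tested, with a median log2 fold change of 0.05. There was 1 higher and 5 lower with equal column totals, and with length and GC trends removed 3 and 2. The all-gene shares in the same order were 35.2% and 30.6%, 25.1% and 45.6%, and 35.5% and 29.1%. Exoc5, a subunit of the exocyst, was at 14.4 and 17.9 FPKM in knockout and 9.91 and 9.54 FPKM in wild type (log2 fold change 0.67, limma adjusted p = 0.000388). Its log2 fold change was 0.42 with equal column totals and larger than as deposited with length and GC trends removed. Exoc7 was the subunit called lower (log2 fold change -0.36). That call ended when either wild-type library was left out, although the log2 fold change moved little. It was -0.38 without wild-type library 1 and -0.33 without wild-type library 2, while its SE rose from 0.11 to 0.19 in both.

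Genes for lipid attachment and membrane delivery were higher in 7 and lower in 2 of 17 tested genes, Ggps1 among the lower. With equal column totals the balance turned, as it did over all tested genes. The list then had 3 higher and 6 lower and a median log2 fold change of -0.16, against 0.09 as deposited. Over all tested genes the median was -0.20, against 0.03 as deposited. The all-gene shares higher and lower were 25.1% and 45.6%, against 35.2% and 30.6% as deposited. With length and GC trends removed 6 genes of the list were higher and 4 lower, beside 35.5% and 29.1% of all genes. Fdps, which makes the farnesyl diphosphate that GGPPS uses, was higher with a log2 fold change of 1.73. Abhd17c, which encodes an enzyme that removes palmitate from Ras proteins, was higher with 0.91. Rce1, which encodes the protease that trims the CAAX box, was higher with 0.62, and was at 0.36 with equal column totals and 0.37 with length and GC trends removed.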

How the data were processed

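Polyadenylated RNA was made into Illumina libraries per the labels' protocols. The deposited values are FPKM, 1 file for each library, per the file headers, which misspell the unit. Per the submitters' processing notes, DESeq2 1.16.1, featureCounts 1.5.0-p3, HISAT2 2.0.5 and mm10 were used, in roles not stated. The program that made FPKM and the use of strand are not given in the sources used here. No whole-fragment step was found: among genes under 0.3 FPKM the most frequent ratio of libraries covered 0.320% (KO) and 0.302% (WT) of genes. Depth is therefore unknown, and no interval that needs it is given.

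Genes that reached 1 FPKM in 2 or more libraries were tested on log2(FPKM + 1), a scale that understates changes of low genes, with limma 3.58.1 (R 4.3.3, intensity trend, Benjamini-Hochberg, threshold 0.05, 13.4 total degrees of freedom). Folds are ratios of mean FPKM without the pseudocount. The fit was also run on simulated libraries that had no scaling difference between genotypes, so that run does not bear on the scaling here. Libraries were grouped by genotype, and nothing says that they came from separate animals, so p-values measure the spread between libraries, which may be technical. The GTPases and the gene lists were chosen with earlier results of these data known. Named list genes were up to 4 called genes by smallest p, and others named were chosen after their values were seen (Rap2b, Araf and Kdr). Some genes of the lists are counted but not reported here by name. Length and GC trends were removed with splines per library for 96.3% of tested genes, an alternative chosen after seeing the data. Tests on sums and shares were exact permutation tests (scipy 1.17.1).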

Additional observations from a re-analysis of the deposited data

How the results depend on the processing

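Rala, Ralb, Hras, Nras and Rras kept their direction and call under all 13 alternatives: pseudocounts of 0.1 and 5, no filter and a filter of 5 FPKM, equal column totals, median-of-ratios scaling, robust estimation, no intensity trend, each library left out, and length and GC trends removed. With equal column totals, Rap1b was at 0.20 and Rap2a at 0.15 on the log2 scale, both no longer called, and Rap1a and Rras2 were at -0.14 and -0.24. With length and GC trends removed, Rap1a was at -0.033 and Rras2 at -0.18. The Rap2a call also ended with no filter (0.38). Leaving out each library in turn gave 0.26 to 0.50 for Rap2a and -0.14 to 0.17 for Rras2. Called pathway genes numbered 25 higher and 37 lower as deposited, 15 higher and 56 lower with equal column totals, and 24 to 43 lower with a library left out, the lowest without wild-type library 2. Over all tested genes the counts were 4332 higher and 3764 lower as deposited, or 35.2% and 30.6%. With equal column totals they were 3095 and 5620, or 25.1% and 45.6%. The knockout minus wild-type difference in summed FPKM of the 9 GTPases was -56.3 as deposited and -172 with equal column totals. Without Rras it was 92.9 and 43.8. A pseudocount of 5 lowered the changes of genes with low levels, as for Diras2 to 0.99 and Rin1 to 1.38. With a library left out, the lone library of a genotype is assumed to vary like the others. The causes of these changes were not tested. No paired analysis was possible because the labels number the 4 libraries consecutively and share no number between genotypes. Precision rests on 2 libraries a genotype at unknown depth.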
